A study of Mus musculus with 5 samples.

Results

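Aminoacyl-tRNA synthetases were examined in mouse lung natural helper cells (group 2 innate lymphoid cells, lymphocytes without antigen receptors) after culture with PMA and ionomycin. The list held 36 genes, of which 20 code for cytosolic enzymes or their subunits and 16, with symbols ending in 2, for mitochondrial enzymes. A gene was measured where a probe set was annotated to its symbol alone, and of several such probe sets the brightest on average over the 5 arrays was taken. This gave 18 cytosolic and 16 mitochondrial genes, 34 in all among 19938 genes tested. The probe set of Aars is shared with Exosc6, and Dars was not in the annotation used, so neither is described. Mars is listed on the array platform as Mars1.

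Cells from naive C57Bl/6 mice aged 6 to 8 weeks had been sorted as lineage-negative, Sca-1+, CD127+ and CD25+, with little or no c-Kit. The 2 stimulated samples had then spent 3 days with PMA at 60 ng/ml, an activator of protein kinase C, and ionomycin at 500 ng/ml, which carries calcium into cells, in 200 microlitres of culture medium. The 3 unstimulated samples were lysed straight after the sort. Cells cultured without the activators were not analysed here, so culture and stimulation cannot be told apart. The labels do not say whether mice were pooled or whether samples came from separate cultures, so the p-values rest on a spread between samples that could be technical alone.

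Each synthetase joins an amino acid to its tRNAs and so supplies the ribosome with charged tRNA. Cells keep a cytosolic set for proteins made from nuclear genes and a mitochondrial set, also coded in the nucleus, for the few proteins made from mitochondrial DNA. Several cytosolic synthetases sit together in the multi-tRNA synthetase complex, held by scaffold proteins. Activated lymphocytes are known to raise protein synthesis as they grow, and ATF4, a transcription factor of the amino acid response, is known to act on many cytosolic synthetase genes.

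Values are log2 expression from 1-colour arrays, with medians of 5.63 to 5.66 on the 5 arrays. Detection calls were not used here, and precision is limited by having 5 arrays. Of 16 markers of natural helper cells, 13 were measured and none read below 6.05. Of these, Il17rb (-3.23), Kit (-2.86), Rora (-0.81) and Id2 (-0.78) fell, as did Il7r, and none rose (limma, Benjamini-Hochberg adjusted p under 0.05). That is 5 of 13 lower, against 0.963% of all genes lower and 0.737% higher. Groups were apart with lower stimulated values for 8 markers, against 14% of all genes. They were apart with higher values for 3, against 18.6% of all genes. These were Il13 (2.41), Il5 (0.71) and Il2ra (0.19), none of them called. Over the 13 markers the median difference, stimulated minus unstimulated, was -0.77 on the log2 scale. Their summed level on a linear scale was 15880 to 16640 in stimulated samples, against 17230 to 19340 in unstimulated ones. Summed markers of other lung cells were lower in the stimulated samples in 5 of 6 lists. On a linear scale, the summed level of 6 endothelial markers was 366 to 428 in stimulated samples, against 523 to 1896 in unstimulated ones. The sums were 146 to 149.9, against 280.5 to 1222, for 6 neutrophil markers, 593 to 705, against 879 to 3191, for 9 lung epithelial markers, and 295 to 324, against 397 to 659, for 8 of 11 macrophage markers. They were 1641 to 2176, against 2583 to 3827, for 10 T and NK cell markers, and 228 to 230, against 216 to 289, for 6 of 7 B cell markers. Linear sums follow the brightest genes, which on unstimulated arrays were Scgb1a1 among epithelial markers and Cd3g and Lat among T and NK markers. Groups were apart with lower stimulated values for 5 of 6 endothelial, 4 of 6 neutrophil and 4 of 9 epithelial genes. So were 4 of 8 macrophage, 3 of 10 T and NK and 0 of 6 B cell genes, against 14% of all genes. They were apart with higher values for 1 neutrophil, 1 T and NK and 1 B cell gene. No marker was at 0, and the lowest log2 value was 3.13. Unstimulated array 3 had the lowest unstimulated sum in all 6 lists. Xist, which females express, read 4.13 ± 0.04 (SD, n = 2) in stimulated and 9.65 ± 0.56 (SD, n = 3) in unstimulated cells, and a difference in sex cannot be told apart from the treatment. In bulk samples, fewer cells of a type and less RNA per cell cannot be told apart.

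Cytosolic synthetase genes mostly read higher in stimulated cells, and most mitochondrial ones differed little. Of 18 cytosolic genes, Tars, Nars, Yars and Wars rose (limma, Benjamini-Hochberg adjusted p under 0.05) and none fell, which is 22.2%, against 0.737% of all genes higher and 0.963% lower, and 1.27% higher among genes brighter than the median probe set. None of the 16 mitochondrial genes passed the test in either direction, although 3 were higher at an unadjusted p under 0.05. The median difference, stimulated minus unstimulated, was 0.81 on the log2 scale over the cytosolic genes (1.76-fold) and 0.03 over the mitochondrial ones (1.02-fold), beside 0 over all genes tested, and 3.72% of all genes differed by the cytosolic median or more. Groups did not overlap, with the stimulated values higher, for 16 of 18 cytosolic and 5 of 16 mitochondrial genes, against 18.6% of all genes, 29.9% of genes brighter than the median probe set and 41.2% of genes with 5 different values. The 4 calls were sensitive to single arrays. Without unstimulated array 1 or unstimulated array 2 no cytosolic gene was called (14 and 12 were higher at an unadjusted p under 0.05), and with any single one of the other 3 arrays left out Tars alone was, while the cytosolic median stayed between 0.81 and 0.87.

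**Figure D1:**
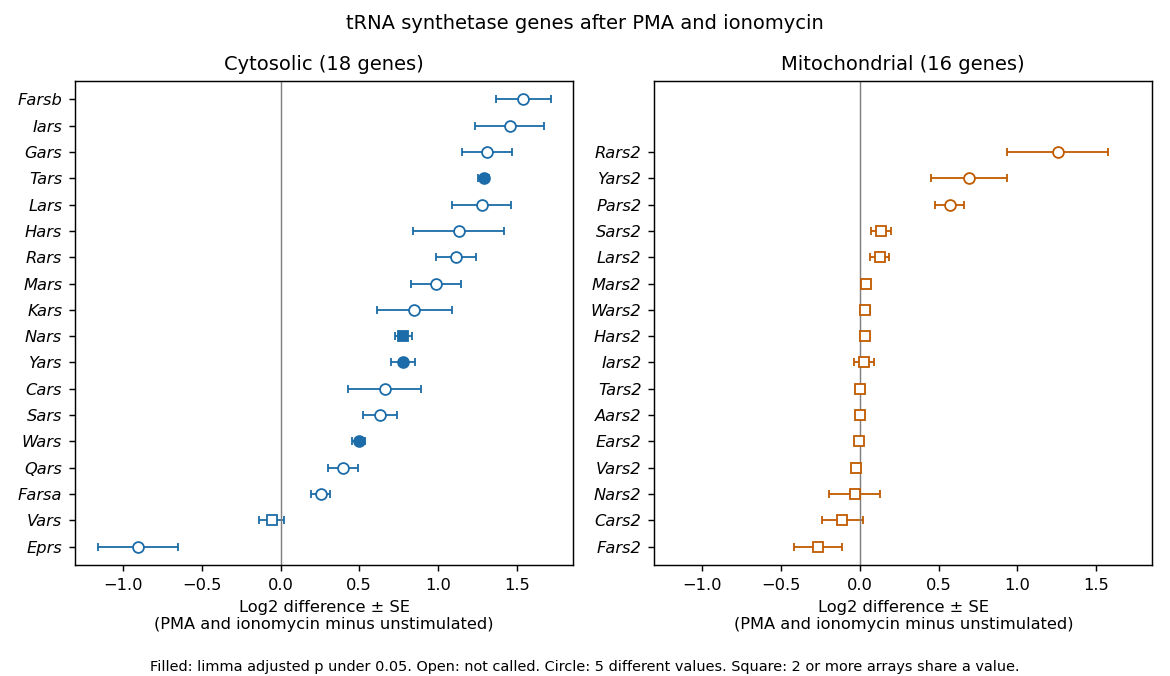
Log2 difference, PMA and ionomycin minus unstimulated, with the SE of the limma fit for 18 cytosolic and 16 mitochondrial synthetase genes (2 stimulated and 3 unstimulated arrays). Filled symbols are called genes and squares are genes with a value shared by 2 or more arrays. Of the cytosolic genes, 16 lie right of 0, and most mitochondrial genes lie close to it.

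Tars, the threonine enzyme, had the clearest rise of the list. It read 8.67 and 8.75 on the stimulated arrays, against 7.41, 7.46 and 7.39 on the unstimulated ones. The SD of the unstimulated arrays was 0.03 (n = 3), and the groups did not overlap. The rise was 2.44-fold, a difference of 1.29 ± 0.04 SE (limma adjusted p = 0.0168). Nars, the asparagine enzyme, read 9.94 and 10.03 on stimulated arrays, against 9.24, 9.24 and 9.13 on unstimulated arrays, and rose 1.72-fold (0.78 ± 0.05 SE, limma adjusted p = 0.0352). Yars, the tyrosine enzyme, read 7.65 and 7.61, against 6.94, 6.88 and 6.73 in unstimulated cells, and rose 1.71-fold (0.78 ± 0.07 SE, limma adjusted p = 0.0482). Wars, the tryptophan enzyme, whose human gene is known to respond to interferon gamma, had the smallest rise of the called genes. It read 7.72 and 7.69 in stimulated cells, against 7.25, 7.23 and 7.14 in unstimulated cells, a 1.41-fold rise (0.50 ± 0.04 SE, limma adjusted p = 0.0416).

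The cytosolic genes with the widest differences did not pass the test, and their unstimulated arrays were further apart than those of Tars. Farsb codes for the beta subunit of the phenylalanine enzyme. It read 9.43 and 9.22 in stimulated cells, against 7.55, 7.78 and 8.02 in unstimulated cells, a difference of 1.54 ± 0.17 SE (limma adjusted p = 0.0558). Iars, the isoleucine enzyme, read 9.25 and 9.29, against 7.82, 8.14 and 7.49 in unstimulated cells (1.46 ± 0.22 SE, adjusted p = 0.0767). Neither gene had groups that overlapped, and in both the gap exceeded the range of either group. A second probe set of Iars read 8.60 and 8.76 in stimulated cells, against 7.52, 7.74 and 7.24 in unstimulated cells, a difference of 1.18 that runs the same way. Gars, the glycine enzyme, whose gene also supplies mitochondria, read 10.04 and 10.07, against 8.54, 8.99 and 8.69 in unstimulated cells (1.31 ± 0.16 SE, adjusted p = 0.0605). Kars, the lysine enzyme, likewise serves both compartments. It read 8.37 and 8.36 in stimulated cells, against 7.13, 7.62 and 7.81 in unstimulated cells (0.85 ± 0.24 SE, adjusted p = 0.181). Leaving out Gars and Kars gave a cytosolic median of 0.78.

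The leucine enzyme gene Lars read 9.83 and 9.62 in stimulated cells, against 8.21, 8.42 and 8.72 in unstimulated cells (1.28 ± 0.19 SE, limma adjusted p = 0.0753). The arginine enzyme gene Rars read 10.33 and 10.38, against 9.10, 9.17 and 9.45 in unstimulated cells (1.12 ± 0.13 SE, adjusted p = 0.0582). In both, every stimulated value lay above every unstimulated one. Hars, the histidine enzyme, differed by 1.13 ± 0.29 SE (adjusted p = 0.158), and its unstimulated values of 7.40, 7.86 and 8.25 were the most spread of the cytosolic genes. The differences were 0.99 ± 0.16 SE for the methionine enzyme gene Mars (adjusted p = 0.0856), 0.66 ± 0.23 for the cysteine enzyme gene Cars (0.256) and 0.63 ± 0.11 for the serine enzyme gene Sars (0.0893). The glutamine enzyme gene Qars differed by 0.39 ± 0.09 SE (adjusted p = 0.143). None of these 7 genes had overlapping groups. At a looser adjusted p under 0.1, 11 cytosolic genes were called higher and none lower, against 3.79% and 3.49% of all genes. At an unadjusted p under 0.05 it was 15 higher and 1 lower, against 11.3% and 8.58% of all genes.

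A few cytosolic genes departed from the others. Eprs codes for the bifunctional enzyme that charges both glutamate and proline tRNAs. It read 9.76 and 9.76 in stimulated cells, against 10.81, 10.95 and 10.24 in unstimulated cells. The groups did not overlap, and the difference of -0.91 ± 0.26 SE was opposite in sign to most of the list but did not pass the test (limma adjusted p = 0.183). It was the only cytosolic gene lower without overlap, against 14% of all genes. Vars, the valine enzyme, read 6.70 and 6.83 in stimulated cells, against 6.77, 6.93 and 6.77 in unstimulated cells (-0.06 ± 0.08 SE), and its groups overlapped. Farsa, the alpha subunit gene of the phenylalanine enzyme, read 7.23 and 7.12, against 6.85, 6.94 and 6.98 in unstimulated cells (0.26 ± 0.06 SE, adjusted p = 0.137). The 2 subunits work as 1 enzyme, yet the log2 gap of Farsb over Farsa was 2.19 and 2.10 in stimulated cells, against 0.70, 0.84 and 1.04 in unstimulated cells. The stimulated and unstimulated gaps did not overlap. Over all ordered pairs of the genes tested, the gap was higher without overlap in 24%, and by symmetry lower in the same share. A gap within an array shows unequal change between 2 probe sets, not a ratio of subunits. With 10 ways to split 5 arrays, an exact permutation test of the gap of Farsb over Farsa cannot go below p = 0.1.

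**Figure D2:**
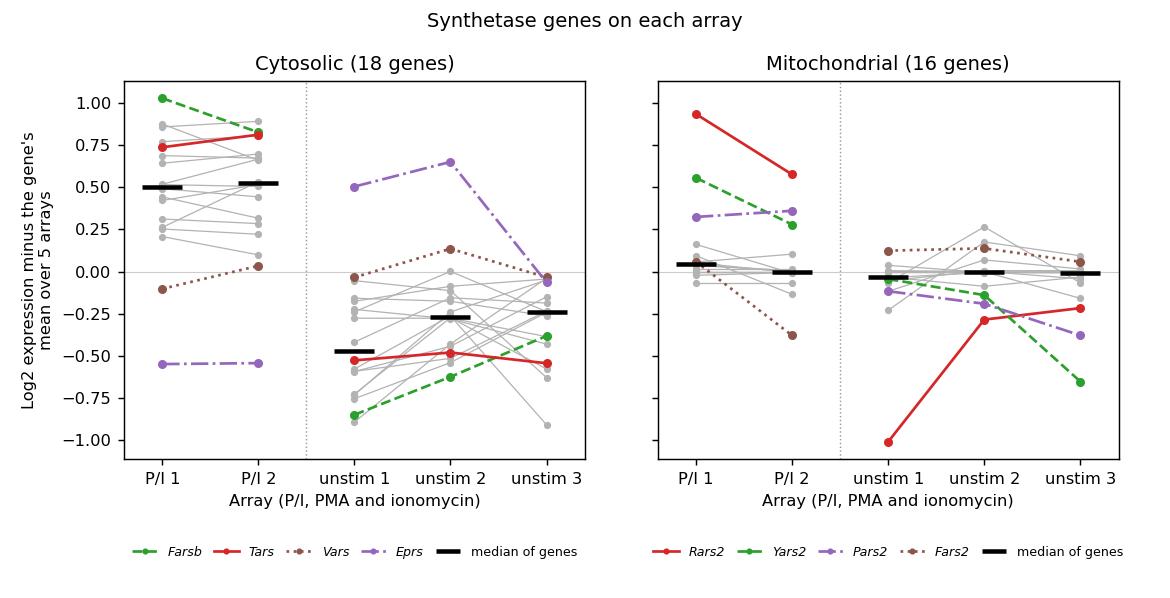
Log2 expression of each synthetase gene minus its own mean over the 5 arrays. Points are arrays, lines join the arrays of a gene within a group, and black bars are the medians over genes, which for cytosolic genes were 0.50 and 0.52 on the stimulated and -0.47, -0.27 and -0.24 on the unstimulated arrays.

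The cytosolic difference was seen against each unstimulated array. With each gene centred on its own mean, the cytosolic medians were 0.50 and 0.52 on stimulated arrays 1 and 2, against -0.47, -0.27 and -0.24 on unstimulated arrays 1, 2 and 3. Unstimulated array 3 had the lowest unstimulated sums of other cells' markers, still above both stimulated arrays in 5 of 6 lists. The part of other cells' markers in the result was not tested.

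Grouping by known enzyme features showed small differences among the cytosolic genes. Synthetases belong to a pair of structural classes with unrelated catalytic folds. The 9 measured class I genes had a median difference of 0.78 with 2 called, and the 8 class II genes had 0.99 with 2 called (Eprs, which joins both folds, is in neither), and no test set the classes against each other. Members of the multi-tRNA synthetase complex had a median of 0.99 over 7 measured genes with none called, and the other 11 cytosolic genes had a median of 0.78 with 4 called. The complex also holds 3 scaffold proteins, whose genes differed in the same direction without passing the test. Eef1e1 read 10.11 and 9.81 in stimulated cells, against 7.99, 8.49 and 8.60 in unstimulated cells (1.60 ± 0.24 SE, limma adjusted p = 0.0792). Aimp2 read 8.27 and 7.91, against 6.28, 6.51 and 6.93 in unstimulated cells (1.52 ± 0.25 SE, adjusted p = 0.0884). Aimp1 read 8.82 and 8.55, against 7.66, 8.15 and 8.22 in unstimulated cells (0.67 ± 0.23 SE, adjusted p = 0.243). The groups of all 3 scaffold genes were apart, against 18.6% of all genes and 41.2% of genes with 5 different values.

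Among the mitochondrial genes, 3 had differences of 0.57 to 1.26, and the other 13 lay between -0.27 and 0.13. Rars2, the arginine enzyme, read 7.88 and 7.53 in stimulated cells, against 5.94, 6.67 and 6.73 in unstimulated cells (1.26 ± 0.32 SE, limma adjusted p = 0.158). Yars2, the tyrosine enzyme, read 7.03 and 6.75, against 6.43, 6.33 and 5.82 in unstimulated cells (0.69 ± 0.24 SE, adjusted p = 0.249). Pars2, the proline enzyme, read 5.51 and 5.55, against 5.07, 4.997 and 4.81 in unstimulated cells (0.57 ± 0.09 SE, adjusted p = 0.0854). Each of these had groups apart, as had the serine enzyme gene Sars2 (0.13 ± 0.06 SE) and the leucine enzyme gene Lars2 (0.13 ± 0.06 SE). The other 11 had overlapping groups, with differences between -0.27 for the phenylalanine enzyme gene Fars2 and 0.04 for the methionine enzyme gene Mars2.

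The values near 0 carry a limit of the deposited table. In 13 of 16 mitochondrial genes, 2 or more arrays held the same value to 5 decimals, against 2 of 18 cytosolic genes and 62% of all genes. Tars2 read 6.54 and Aars2 read 5.17 on every array, and such a value cannot show a difference in either direction. The 3 mitochondrial genes with 5 different values were Rars2, Yars2 and Pars2, which also had the widest differences. Among genes with 5 different values, an alternative chosen after seeing the data, the median over these 3 was 0.69 and the cytosolic median exceeded it by 0.22, against a gap of 0.79 over all measured members. Groups were apart with higher values in 41.2% of all genes with 5 different values, against 18.6% of all genes, so this filter favours genes that differ. The smaller gap, from 3 mitochondrial genes, therefore cannot show whether differences were hidden in the others. The mean was above the median of all probe sets for 18 of 18 cytosolic and 11 of 16 mitochondrial genes, against 51.9% of all genes, and the median over those 11 was 0.03. Whether the repeated values hide differences in mitochondrial genes was not tested.

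Enzymes for the same amino acid were then set side by side, with each cytosolic gene against its mitochondrial counterpart on the same array. There were 16 such pairs, with Eprs and Fars2 in 2 each. The cytosolic difference was larger in 12 pairs and smaller in 4. In 11 pairs the log2 gap between the enzymes was higher on both stimulated arrays than on any unstimulated array, in 2 it was lower and in 3 it overlapped, while over all ordered pairs of the genes tested the gap was higher without overlap in 24%. The mitochondrial gene had repeated values in 13 of the 16 pairs, which include all 11 with a higher gap. Most of these gaps follow mainly the cytosolic gene. The gap of Farsa (0.26) over Fars2 (-0.27) does not, since both differed by a like amount. Tars2 held 1 value on all arrays, and its pair restates Tars alone. For isoleucine, Iars over Iars2 gave 2.40 and 2.43, against 1.10, 1.23 and 0.64 in unstimulated cells. For arginine, Rars (1.12) and Rars2 (1.26) had differences of like size, and the gap overlapped between groups, at 2.44 and 2.86 in stimulated cells, against 3.15, 2.51 and 2.72 in unstimulated cells. Tyrosine was similar, with differences of 0.78 for Yars and 0.69 for Yars2. Both pairs with Eprs ran the other way, with its mitochondrial counterparts Ears2 (-0.0023) and Pars2 (0.57) above its own -0.91. The smallest two-sided exact permutation p of a pair was 0.1, which 10 pairs reached, and 0.16 after Benjamini-Hochberg adjustment over the 16 pairs.

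**Figure D3:**
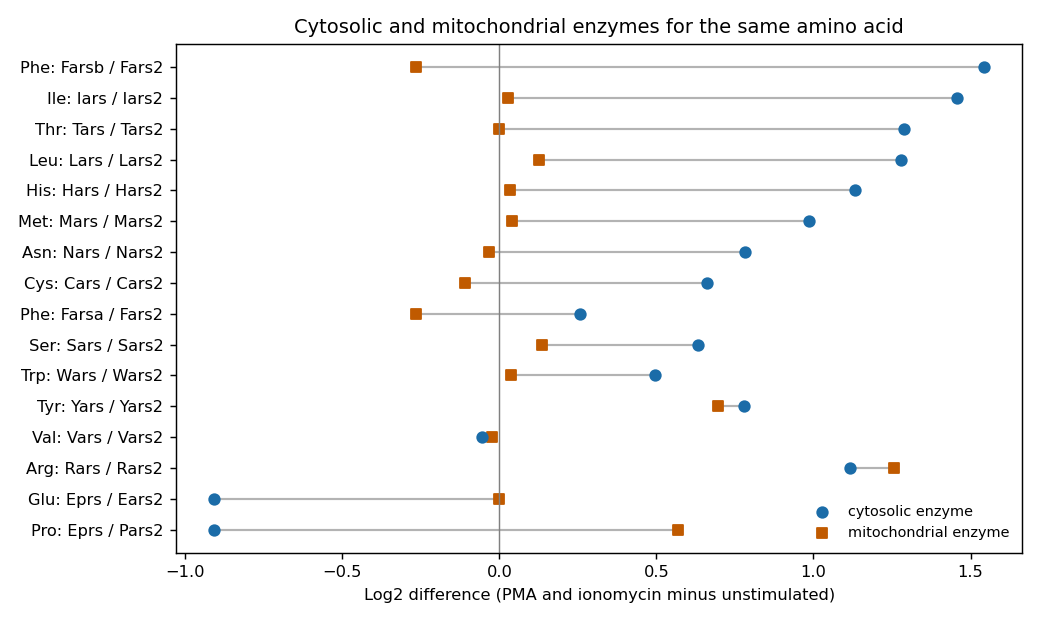
Log2 difference, PMA and ionomycin minus unstimulated, of cytosolic (circles) and mitochondrial (squares) enzymes for the same amino acid, 1 row for each of 16 pairs. The cytosolic enzyme lies further right in 12 pairs, the tyrosine and arginine pairs lie close together, and both pairs with Eprs are turned round.

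Other genes of mitochondrial charging and of tRNA supply showed few calls. None of the 5 measured partners of mitochondrial charging passed the test. Tufm, the elongation factor that brings charged tRNA to the mitochondrial ribosome, had the widest difference, reading 7.29 and 7.31 in stimulated cells, against 6.32, 6.71 and 6.67 in unstimulated cells (0.73 ± 0.15 SE, limma adjusted p = 0.111). Qrsl1, Gatb and Gatc code for the subunits that turn glutamate on mitochondrial glutamine tRNA into glutamine, and differed by 0.27 ± 0.09, 0.20 ± 0.12 and -0.06 ± 0.07 SE. Mtfmt, which formylates the initiator methionine tRNA of mitochondria, differed by 0.13 ± 0.08 SE. Of 5 measured genes for cytosolic tRNA delivery, 1 rose (20%, against 0.737% of all genes). This was Xpot, which exports tRNA from the nucleus. It read 7.79 and 7.88 in stimulated cells, against 7.14, 7.22 and 7.07 in unstimulated cells, a 1.62-fold rise (0.70 ± 0.06 SE, limma adjusted p = 0.0442). No gene of either list fell, against 0.963% of all genes.

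Few genes of the amino acid response list passed the test. Of 27 measured genes, 1 fell and none rose, against 0.963% and 0.737% of all genes, and the median difference was 0.17, beside 0 over all genes. At an unadjusted p under 0.05, 10 were higher and 3 lower, against 11.3% and 8.58% of all genes. Groups were apart with higher stimulated values for 13 (48.1%) and with lower ones for 3, against 18.6% and 14% of all genes. For higher values the share was 29.9% of genes brighter than the median probe set and 41.2% of genes with 5 different values. Of the 27 genes, 23 were brighter than that median and 21 had 5 different values. Asns, the asparagine synthetase gene and a well known ATF4 target, had the widest difference, at 9.21 and 8.97 in stimulated cells, against 7.30, 6.60 and 6.27 in unstimulated cells (2.37 ± 0.37 SE, limma adjusted p = 0.0808). Psat1 of serine synthesis (1.56 ± 0.21 SE, adjusted p = 0.0683), Shmt2 (1.43 ± 0.29, 0.111) and Mthfd2 (1.41 ± 0.37, 0.166) of mitochondrial folate metabolism had groups apart too, and in the other direction so had Cebpb, a transcription factor (-0.81 ± 0.08 SE, adjusted p = 0.051), and Slc3a2, an amino acid transporter subunit (-0.88 ± 0.25, 0.183). These 5 were picked after their values were seen. Atf4 itself read 8.98 and 9.14, against 9.35, 9.14 and 9.01 in unstimulated cells (-0.11 ± 0.13 SE, adjusted p = 0.654). The stress targets Ddit3 (-0.14 ± 0.14 SE), Trib3 (0.09 ± 0.06) and Chac1 (0.12 ± 0.14) had overlapping groups. Trib3 held only 2 different values over the 5 arrays, the limit given above for mitochondrial genes. Atf3, an early stress gene, fell 4.55-fold and read 8.78 and 8.68 in stimulated cells, against 11.14, 10.65 and 10.95 in unstimulated cells (-2.19 ± 0.17 SE, adjusted p = 0.0406). ATF4 is known to be controlled largely at translation, which an array of mRNA does not measure.

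**Figure D4:**
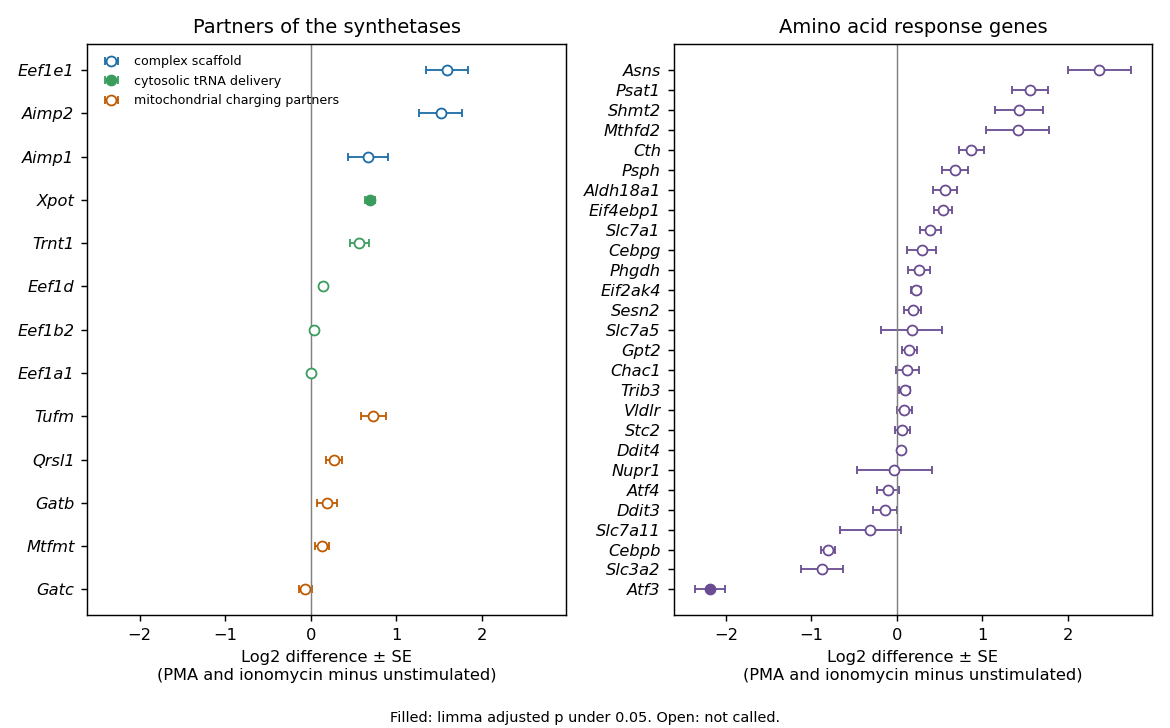
Log2 difference, PMA and ionomycin minus unstimulated, with the SE of the limma fit, for partner genes of the synthetases (left) and amino acid response genes (right). Filled symbols are called genes: Xpot (0.70) and Atf3 (-2.19).

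Promoters were read for the motif that ATF4 binds with C/EBP partners, TGATGNAAN, and for the E-box CACGTG, known as a site for Myc and related factors. RefSeq promoters on build GRCm38.p6, from 250 bases before to 50 bases after the gene start, were at hand for 27 of the 36 listed genes. None was at hand for Cars, Hars, Lars, Nars, Rars, Vars, Wars, Hars2 and Pars2, so the called genes Nars and Wars were not searched. Both strands were searched, and the motifs did not overlap each other where both were found. TGATGNAAN was present in 5 of 13 cytosolic promoters (38.5%), those of Aars, Gars, Iars, Tars and Yars, and in 0 of 14 mitochondrial ones, against 3.95% of 32851 promoters in the table. CACGTG was present in 4 of 13 cytosolic promoters, those of Aars, Farsb, Iars and Tars, and in 1 of 14 mitochondrial ones, that of Ears2, against 7.15% of all promoters. A match is a description of letters and not a site.

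The stretch from 80 bases before to 25 bases after the start is shown for the 4 measured genes with the ATF4 motif, for Farsb as the gene with the widest difference, and for Tars2 as the mitochondrial gene for the same amino acid as Tars. Capitals mark matches to either motif, and in Tars, Iars and Gars the ATF4 motif lies on the opposite strand, so that its reverse complement is read.
Tars, chr15:11399634-11399738, minus strand: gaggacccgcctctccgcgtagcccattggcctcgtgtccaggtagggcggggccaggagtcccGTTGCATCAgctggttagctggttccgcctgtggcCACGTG
Iars, chr13:49682050-49682154, plus strand: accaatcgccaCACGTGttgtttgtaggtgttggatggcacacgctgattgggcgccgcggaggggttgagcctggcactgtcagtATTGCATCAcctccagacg
Gars, chr6:55037921-55038025, plus strand: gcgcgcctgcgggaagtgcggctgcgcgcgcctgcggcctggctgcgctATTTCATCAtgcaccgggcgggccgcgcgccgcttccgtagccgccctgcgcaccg
Yars, chr4:129189823-129189927, plus strand: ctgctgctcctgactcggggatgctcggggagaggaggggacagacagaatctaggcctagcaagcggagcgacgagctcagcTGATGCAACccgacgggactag
Farsb, chr1:78488873-78488977, minus strand: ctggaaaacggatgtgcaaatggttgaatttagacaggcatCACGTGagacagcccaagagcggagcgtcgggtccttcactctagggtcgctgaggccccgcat
Tars2, chr3:95754953-95755057, minus strand: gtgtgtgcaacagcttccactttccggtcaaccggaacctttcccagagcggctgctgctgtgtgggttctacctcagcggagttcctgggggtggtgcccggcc
The ATF4 motif lies 16 to 8 bases before the start in Tars and 31 to 23 bases before it in Gars. It lies at bases 7 to 15 of the transcribed part in Iars and 4 to 12 in Yars. The window of Tars2 holds neither motif. The genes with the ATF4 motif had differences of 1.29 for Tars, 1.46 for Iars, 1.31 for Gars and 0.78 for Yars. Farsb, at 1.54, has the E-box alone in this window. Differences were 0.99 for Mars, 0.85 for Kars, 0.63 for Sars, 0.39 for Qars, 0.26 for Farsa and -0.91 for Eprs. The searched promoters of these last cytosolic genes held neither motif. Any link between the motifs and the differences was not tested.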

How the data were processed

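Gene expression was measured on 1-colour Affymetrix arrays of 2 stimulated and 3 unstimulated samples, grouped by their titles. Per the labels' protocols, Trizol was used for extraction, and 6 micrograms of total RNA were labelled. The deposited values are log2 expression per probe set from RMA, per the submitters' processing notes, and the RMA version and software are not given in the sources used here. Of 35556 probe sets, 21789 had a single gene symbol, 1621 had several and 12146 were not in the annotation used here.

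Stimulated samples were set against unstimulated ones over 19938 unfiltered genes with limma 3.58.1 under R 4.3.3 (lmFit, then eBayes, with 0.649 prior and 3 residual degrees of freedom), and a Benjamini-Hochberg adjusted p under 0.05 was a call. On simulated data of this comparison and 19938 genes, 36.4% of genes changed by 0.58 log2, 54.5% of those changed by 1 and 82.1% of those changed by 2 were recovered. On average 8.2 unchanged genes were called. Changed genes were drawn from all genes with each gene's own spread, and 6.54% of all genes held 1 value on all 5 arrays. The shares therefore need not hold for the synthetase genes. Every synthetase gene could be named. From other lists, called genes and fixed names were used, together with some uncalled genes picked after their values were seen. Members and lists were chosen with earlier results of these data known. Alternatives were other variance models, a filter on dim genes, the mean of probe sets, 2 normalizations, array weights, a replicate block, a looser threshold, omission of Gars and Kars, and leaving out each array. Plots used matplotlib 3.10.9 in Python 3.11.15.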

Additional observations from a re-analysis of the deposited data

How the results depend on the processing

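The direction of the cytosolic median held in each alternative run, and the gene counts moved with most settings. Other variance models, the filter on dim genes, which kept all 18 cytosolic genes, and the looser threshold could not move this median. They leave the cytosolic differences as they were. Leaving out each array gave 0 to 1 cytosolic genes called higher, 0 lower, 0 mitochondrial genes called either way, 0 to 361 of all genes higher and 0 to 413 lower. The cytosolic median then ran from 0.81 to 0.87, the mitochondrial one from 0.01 to 0.05 and the gap between them from 0.78 to 0.84. Without unstimulated array 2, limma called 0 genes (3024 at an unadjusted p under 0.05, 12 cytosolic genes higher among them), and with the replicate block also 0 (3568, with 11 cytosolic genes higher). The labels do not say whether same-numbered arrays were paired. Deviations of such arrays from their group means correlated at -0.07 and -0.04. With 2 stimulated arrays these deviations mirror each other, so the correlations cannot settle whether arrays were paired. The block leaves 1 residual degree of freedom. Cytosolic genes called higher, then all genes higher and lower, were 1, 45 and 66 with robust variances, 11, 824 and 716 among genes above the median, 10, 660 and 526 with each array centred on its median, 11, 825 and 729 after quantile normalization, and 11, 755 and 695 at an adjusted p under 0.1. Mitochondrial genes called higher numbered 1 with median centring, with quantile normalization and at that looser threshold. Among genes with 5 different values, chosen after seeing the data, 13 cytosolic genes were higher and 1 lower, 3 mitochondrial genes were higher, the mitochondrial median was 0.69, the gap was 0.22, and 1548 genes were higher and 1161 lower. Fewer genes were tested there and in the filter on dim genes. Requiring 5 different values also keeps a larger share of genes with groups apart (41.2% higher, against 18.6% of all genes). The cause of the other shifts was not tested. Uncalled genes near 0 turned sign in a few fits: Ears2 gave 0.0188 with median centring and 0.0119 with quantile normalization, and Nars2 gave 0.00658 with the replicate block. With each array left out, differences ran from -0.155 to 0.0806 for Nars2, from -0.0267 to 0.0663 for Iars2 and from -0.124 to 0.0115 for Vars.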

Other observations

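Lists that touch the synthetases from other sides gave no calls. Of 6 proofreading and related enzyme genes, which clear misacylated tRNAs or resemble synthetases, none passed the test. For 5 the difference was above 0, against 9932 of all 19938 genes, and the median was 0.35 on the log2 scale, beside 0 over all genes. Of 12 measured interferon response genes, none passed, 11 differences were below 0, against 8702 of all 19938 genes, and the median was -0.40. Groups were apart with lower stimulated values for 6 of the 12, against 14% of all genes. Gbp4 was the 1 gene above 0 (0.76), with groups apart and no call. Any link between this list and the rise of Wars (0.50) was not tested.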
